A study of Mus musculus with 18 samples.

Results

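Neuronal activity switches on a set of genes whose products change synapses, and 9 of them were followed here in the mouse hippocampus: Arc, Homer1, Npas4, Nptx2, Inhba, Plk2, Rheb, Gadd45b and Ptgs2. They were chosen by symbol, and all 9 were found among the 57180 gene identifiers of the deposited count table. RNA was sequenced from the hippocampus of 18 wild-type adolescent male C57BL/6J mice, 1 library per mouse and 6 mice per group, with the same batch label on every library. The first group underwent chronic social defeat stress (CSDS), repeated encounters with a resident mouse used as a model of depression, and trained aerobically from before the defeat until its end. The second group had CSDS without training, and control mice received no treatment. Tissue was taken after behavioural testing; the time between the last test and dissection is not given in the sources used here, and none of the groups trained without defeat.

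When a synapse is strongly driven, calcium entering the neuron activates kinases that phosphorylate transcription factors such as CREB and SRF, and a first wave of transcripts appears within minutes. Some of these encode further transcription factors, as Npas4 does. Others act at the synapse itself, where Arc removes AMPA receptors, Homer1 anchors metabotropic glutamate receptors and Nptx2 clusters AMPA receptors from outside the cell. In the hippocampus some of these genes, such as Arc, are used as a record of which neurons were recently active. Rheb differs from the rest in being present in most cells at a steady level.

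Short stretches of promoter are shown for 3 of the genes because CREB acts through a known DNA element, the CRE, whose core is TGACG and whose full form is TGACGTCA. RefSeq promoter windows on GRCm38.p6 were matched for 7 of the 9 genes; Arc and Nptx2 are named only. Capitals mark each CRE core on either strand, and each line runs 5′ to 3′ on the strand of the gene. The Homer1 stretch lies at chr13:93303697-93303756 (plus strand), that of Plk2 at chr13:110394964-110395013 (plus strand) and that of Npas4 at chr19:4990128-4990157 (minus strand). The Homer1 and Npas4 stretches precede the RefSeq start site but lie within the longer gene spans of GENCODE M21.
Homer1: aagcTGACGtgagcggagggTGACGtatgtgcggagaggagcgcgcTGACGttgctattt
Plk2: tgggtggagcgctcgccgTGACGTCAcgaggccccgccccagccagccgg
Npas4: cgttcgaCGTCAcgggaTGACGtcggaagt

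In the 250 bases before the start site, the CRE core was in 4 of the 8 windows of these 7 genes (1 of the 2 Homer1 windows and those of Npas4, Plk2 and Rheb), against 17.8% of 32851 windows over all genes. The Homer1 window shown had 3 copies, Npas4 and Plk2 had 2 each and Rheb had 1. Plk2 alone of the 7 held the full CRE, whose letters include a core on each strand; 1.55% of all windows hold it. The AP-1 letters TGANTCA were in none of the 8 windows, against 6.75% of all windows, and neither was a CArG box, the element of SRF (1.47% of all windows). The letters TCGTG, the E-box type bound by Npas4, were in the windows of Plk2 and Rheb (13.3% of all windows), and a TATA box (TATAAA) was in those of Inhba and Gadd45b (12.4% of all windows). In Plk2 a TCGTG match overlaps the CRE by 2 of its letters. These are matches of letters on both strands, not sites shown to be bound.

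Total counts lay between 18911080 and 24136591 per library, and 16738 genes, all 9 among them, passed the filter on low counts. Libraries came from whole hippocampal tissue, in which fewer cells of a type and less RNA per cell cannot be told apart. Markers of dentate granule neurons, CA1 and CA3 pyramidal neurons were present in every group, but control replicate 2 stood apart. The summed level of its 6 dentate granule markers was 114 CPM (counts scaled to library size), while the remaining 17 libraries lay at 366 to 660 CPM, and 1 of the 6, Dsp, was at 0. Its 5 neocortical markers summed to 524 CPM, beside 108 to 152 CPM in the 17. The 3 CA1 markers summed to 89.2 CPM in it (264 to 664 CPM in the 17) and the 3 CA3 markers to 52.2 CPM (59.8 to 109 CPM). Choroid plexus markers were at 18.3 CPM (61.9 to 8385 CPM) and pan-neuronal markers at 6914 CPM (3824 to 5535 CPM). Single markers did not all stand apart. The neocortical sum came mainly from Lamp5, Tbr1 and Rorb (259, 164 and 75.2 CPM). Fezf2 (18.3 CPM) and Scnn1a (8.62 CPM) of that list lay within the range of the 17. Stxbp6 of the dentate, Cdh24 of the CA3, Kcnj13 of the choroid plexus and Slc17a7 of the pan-neuronal markers also lay within that range in control replicate 2. This library had the highest level of Arc, Homer1, Npas4 and Inhba among the 18 and the lowest of Ptgs2, so the 9 genes are compared with control mice both with and without it. Thalamic markers reached 579 CPM in 1 library of the exercise group and 445 CPM in 1 control library, with group medians of 59.8 to 68.1 CPM.

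The genes were expressed at very different levels. Per length, in TPM (counts divided by exon length and scaled to library size), Plk2 was at 174 ± 30.3 TPM and Arc at 152 ± 118 TPM (mean ± SD, n = 18). Nptx2 followed at 47.2 ± 9.73 TPM, then Rheb at 37.4 ± 4.599, Homer1 at 25.9 ± 7.42 and Gadd45b at 24.2 ± 3.79 TPM. Ptgs2 was at 15.3 ± 3.01 TPM, Npas4 at 6.25 ± 2.93 TPM and Inhba at 2.58 ± 0.626 TPM. The ranges over the 18 libraries of each gene and the next in this order overlapped. Npas4 and Inhba rested on the fewest counts, 55 to 443 and 61 to 174 per library. Arc rested on 812 to 11390.

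None of the 9 genes passed the test in any of the 3 comparisons. The edgeR quasi-likelihood test, adjusted over all 16738 genes, called 0 of the 9 in CSDS with exercise against CSDS (background 0% of all genes), 0 in CSDS against control (0%) and 0 in CSDS with exercise against control (0.0179%, or 3 genes). At an unadjusted p under 0.05 the first comparison had 0 of the 9 (15.6% of all genes, 7.46% lower and 8.1% higher). The second had 1, Arc, on the lower side (3.51% of all genes, 1.68% lower and 1.83% higher), and the third had 2, Arc and Npas4, both lower (11.2% of all genes, 4.39% lower and 6.8% higher). Leaving out control replicate 2 again gave 0 calls. Lower at that p were then Npas4 in the first comparison, none in the second, and Arc and Gadd45b in the third. The shares of all genes lower were 8.64%, 0.968% and 4.3%. The first comparison holds no control mouse, but all 3 groups share 1 estimate of the spread. Its log2 fold change for Npas4 was -0.505 in both fits, while the SE was 0.31 with that library and 0.21 without it. For Arc the SE was 0.41 and 0.32, and for Homer1 0.24 and 0.15. For Plk2, Rheb and Gadd45b it was 0.12, 0.14 and 0.13 in both fits. DESeq2 called none of the 9. limma voom with quality weights called Arc and Npas4 between the exercise and CSDS groups and Arc between the exercise and control groups, under a setting that called 5567 and 183 genes in all. For no gene were 2 groups fully separated (0.89%, 0.239% and 0.562% of all genes in the 3 comparisons). The median log2 fold change of the 9 was 0.0032, -0.05 and -0.05 in the 3 comparisons, beside 0.02, 4.0e-05 and 0.01 over all genes.

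**Figure D1:**
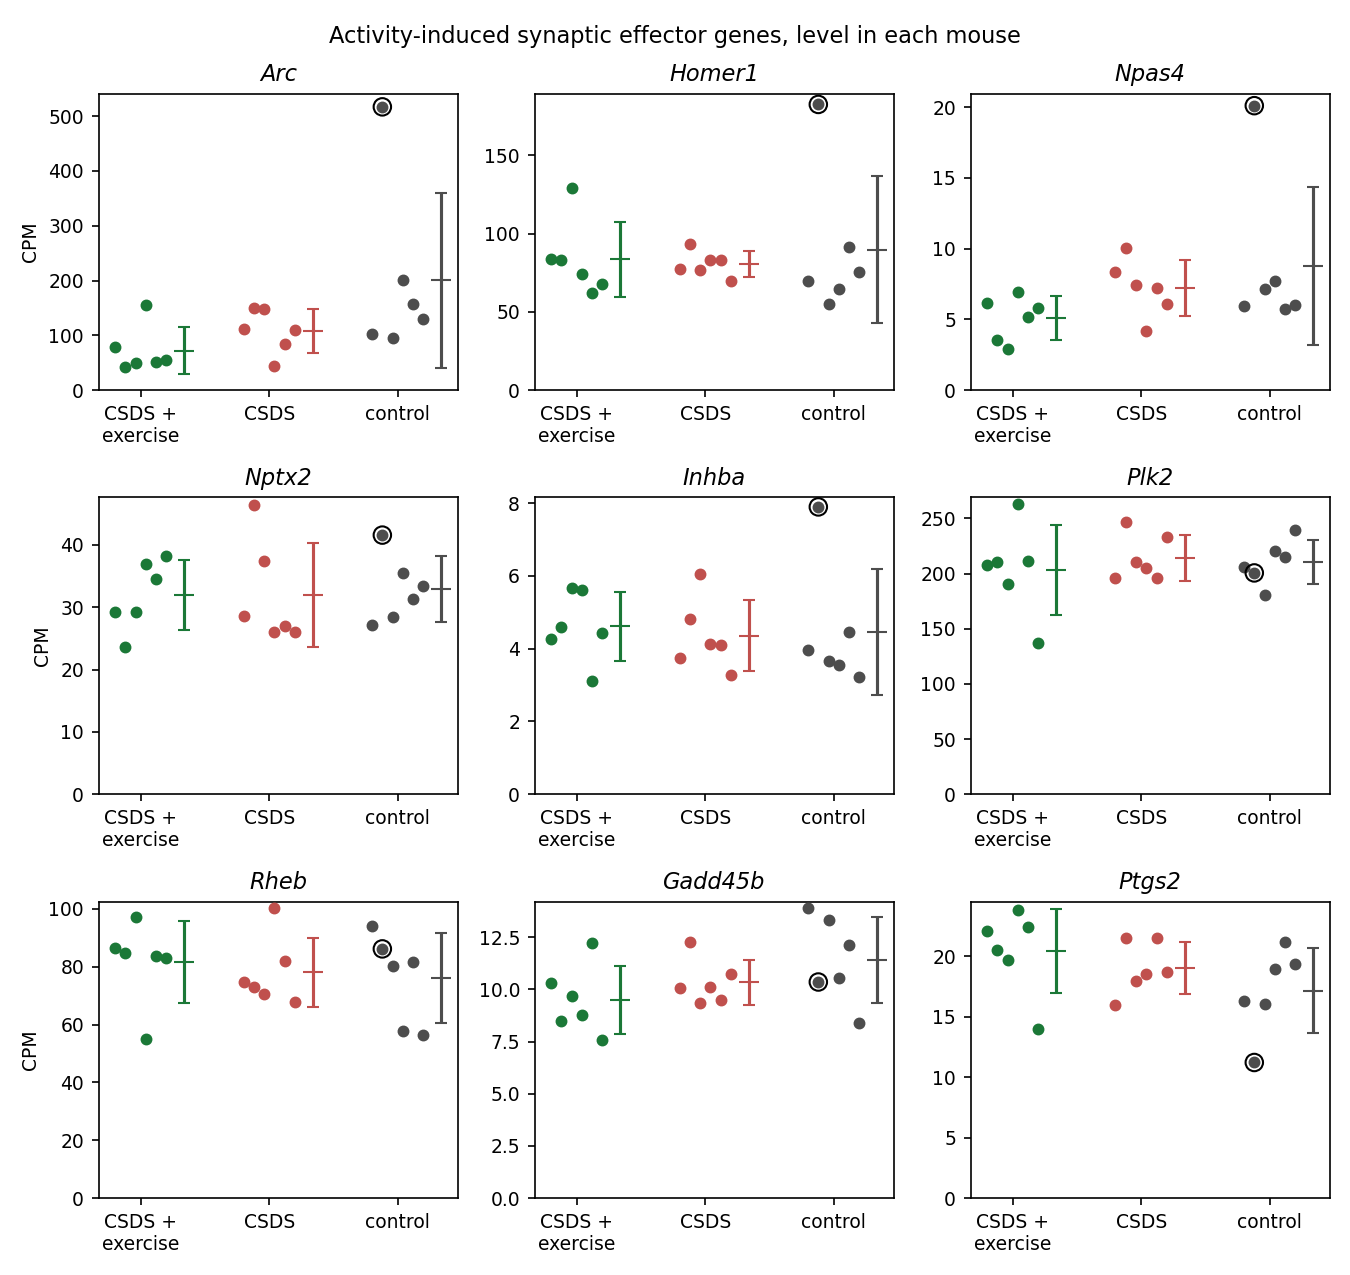
Level of each gene in each mouse, in CPM on an axis from 0, for CSDS with exercise, CSDS and control. Each point is 1 library, the bars are mean ± SD (n = 6), and the ringed point is control replicate 2, the highest of 18 for Arc, Homer1, Npas4 and Inhba and the lowest for Ptgs2.

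Arc encodes a postsynaptic protein that binds the endocytic machinery and draws AMPA receptors out of the membrane, and its mRNA travels into dendrites. The gene (ENSMUSG00000022602, chr15:74669083-74672570, minus strand, GRCm38) varied more than any other of the 9, by 12.3-fold between the highest and lowest library, and by 4.80-fold without control replicate 2. Its level was 42.0, 53.0 and 155 CPM in CSDS with exercise (lowest, median and highest of 6 mice), 45.0, 110.2 and 149 CPM in CSDS, and 94.3, 143 and 517 CPM in controls. Of the exercise mice, 5 lay at or under 78.7 CPM, below every control mouse, while replicate 4 lay among the controls. Between CSDS and control the ranges overlapped widely.

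The log2 fold change of Arc was -0.58 ± 0.41 (SE) in CSDS with exercise against CSDS (edgeR adjusted p = 0.481). It was -0.89 ± 0.41 in CSDS against control (adjusted p = 0.993) and -1.47 ± 0.42 in CSDS with exercise against control (unadjusted p = 0.00225, adjusted p = 0.217), the last with a 95% interval of -2.35 to -0.60. Without control replicate 2 the control mean was 137 ± 43.7 CPM in place of 200.2 ± 160 CPM. The comparisons with control then gave -0.34 ± 0.33 for CSDS and -0.93 ± 0.33 for CSDS with exercise (adjusted p = 0.9997 and 0.318). Without exercise replicate 4 the difference of the exercise group was -0.98 from CSDS and -1.88 from control (edgeR adjusted p = 0.128 and 0.0604). The 3 comparisons share groups and are not independent of each other.

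Npas4 encodes a transcription factor that is induced by calcium entry in neurons and regulates inhibitory synapses. The gene (ENSMUSG00000045903, chr19:4984355-4990316, minus strand) had 2.91, 5.46 and 6.94 CPM in CSDS with exercise, 4.17, 7.34 and 10.1 CPM in CSDS, and 5.73, 6.58 and 20.1 CPM in controls (lowest, median and highest). All 3 groups overlapped, and only CSDS replicate 2 and control replicate 2 were above 10 CPM. The log2 fold change was -0.51 ± 0.31 in CSDS with exercise against CSDS (edgeR adjusted p = 0.418), -0.28 ± 0.30 in CSDS against control (adjusted p = 0.993) and -0.79 ± 0.31 in CSDS with exercise against control (adjusted p = 0.357). Without control replicate 2 the value for CSDS against control turned positive, at 0.15 ± 0.22, and that for CSDS with exercise against control was -0.35 ± 0.22.

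Homer1 encodes a scaffold that ties group I metabotropic glutamate receptors to Shank proteins and to calcium release channels. Activity induces a short form that lacks the coiled coil and loosens these links. The count covers all transcripts of the gene (ENSMUSG00000007617, chr13:93299635-93405129, plus strand, 12 transcripts in GENCODE M21), so the short form was not measured apart. Homer1 was at 62.3, 78.9 and 129 CPM in CSDS with exercise, at 69.5, 80.3 and 93.3 CPM in CSDS and at 54.8, 72.9 and 183 CPM in controls. The CSDS mice lay closest together, and each of the other groups had 1 mouse far above the rest. The log2 fold change was 0.05 ± 0.24, -0.16 ± 0.24 and -0.11 ± 0.24 in CSDS with exercise against CSDS, CSDS against control and CSDS with exercise against control. Without control replicate 2 both comparisons with control were positive, at 0.18 and 0.23.

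Nptx2 and Inhba encode secreted proteins. Nptx2 is a pentraxin that clusters AMPA receptors, above all at excitatory inputs onto parvalbumin interneurons. Its gene (ENSMUSG00000059991, chr5:144545902-144557478, plus strand) was at 23.6, 31.9 and 38.2 CPM in CSDS with exercise, 25.97, 27.8 and 46.5 CPM in CSDS and 27.2, 32.4 and 41.6 CPM in controls. The 95% interval of its log2 fold change was -0.32 to 0.33 in CSDS with exercise against CSDS and -0.37 to 0.28 in each comparison with control. The values against control were -0.05 for CSDS and -0.04 for CSDS with exercise, and 0.03 and 0.04 when control replicate 2 was left out. In all 3 groups the lowest and the highest mouse lay within a 2-fold range of each other.

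Inhba encodes the subunit of activin A, a growth factor of the TGF-beta family that acts on spines and on neuronal survival. The gene (ENSMUSG00000041324, chr13:16011851-16031621, plus strand) was at 3.11, 4.51 and 5.66 CPM in CSDS with exercise, 3.27, 4.11 and 6.06 CPM in CSDS and 3.22, 3.81 and 7.90 CPM in controls. The 3 groups overlapped, with control replicate 2 above all other mice. The log2 fold change lay between -0.03 and 0.08 in the 3 comparisons. Leaving out control replicate 2 gave 0.21 ± 0.17 in CSDS against control, which turned the sign, and 0.29 ± 0.17 in CSDS with exercise against control. Its counts were not whole in 12 libraries, where RSEM had divided reads, and a pseudogene on the opposite strand, B230303A05Rik, overlaps it with 99 counts in all 18 libraries together.

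Plk2 and Rheb act inside the cell. Plk2 is a kinase that marks the spine protein SPAR, product of Sipa1l1, for degradation after prolonged activity. Its gene (ENSMUSG00000021701, chr13:110395046-110400844, plus strand) was at 137, 209 and 263 CPM in CSDS with exercise, 196, 207 and 246 CPM in CSDS and 181, 211 and 239.8 CPM in controls. Both the highest and the lowest of the 18 values came from exercise mice, and the log2 fold change was between -0.08 and 0.03 with an SE of 0.12 in each comparison. Less control replicate 2, CSDS against control gave 0.01 and CSDS with exercise against control gave -0.06.

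Rheb is a small GTPase that activates the kinase complex mTORC1, which controls protein synthesis. The gene (ENSMUSG00000028945, chr5:24802823-24842624, minus strand) was at 55.0, 84.3 and 97.1 CPM in CSDS with exercise, 67.7, 74.0 and 100.3 CPM in CSDS and 56.4, 81.0 and 94.2 CPM in controls. The ratio between its extremes over the 18 libraries was 1.82, the smallest of the 9. Its log2 fold changes were 0.07 in CSDS with exercise against CSDS, 0.04 in CSDS against control and 0.10 in CSDS with exercise against control, each with an SE of 0.14. The comparisons with control gave 0.08 and 0.14 when control replicate 2 was left out.

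Gadd45b takes part in DNA repair and in active DNA demethylation, and in the mouse dentate gyrus it is induced by activity. The gene (ENSMUSG00000015312, chr10:80930073-80932204, plus strand) was at 7.59, 9.22 and 12.2 CPM in CSDS with exercise, 9.34, 10.1 and 12.3 CPM in CSDS and 8.39, 11.3 and 13.9 CPM in controls. Its mean was 9.51 ± 1.63 CPM in CSDS with exercise, 10.3 ± 1.07 CPM in CSDS and 11.4 ± 2.06 CPM in controls (SD, n = 6 each), and the 3 groups overlapped. The log2 fold change was -0.26 ± 0.13 in CSDS with exercise against control (unadjusted p = 0.0586, edgeR adjusted p = 0.461), and -0.29 without control replicate 2. It was -0.14 ± 0.13 in CSDS against control, and -0.17 without that library.

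Ptgs2, also called COX-2, makes the precursor of the prostaglandins and is found in excitatory neurons of the forebrain. The gene (ENSMUSG00000032487, chr1:150100031-150108227, plus strand) was at 14.0, 21.3 and 23.8 CPM in CSDS with exercise, 16.0, 18.6 and 21.5 CPM in CSDS and 11.2, 17.6 and 21.2 CPM in controls. Its log2 fold changes were 0.10 ± 0.14, 0.15 ± 0.14 and 0.25 ± 0.14 in CSDS with exercise against CSDS, CSDS against control and CSDS with exercise against control, and the comparisons with control gave 0.05 and 0.15 without control replicate 2. None passed the test (smallest edgeR adjusted p = 0.514).

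**Figure D2:**
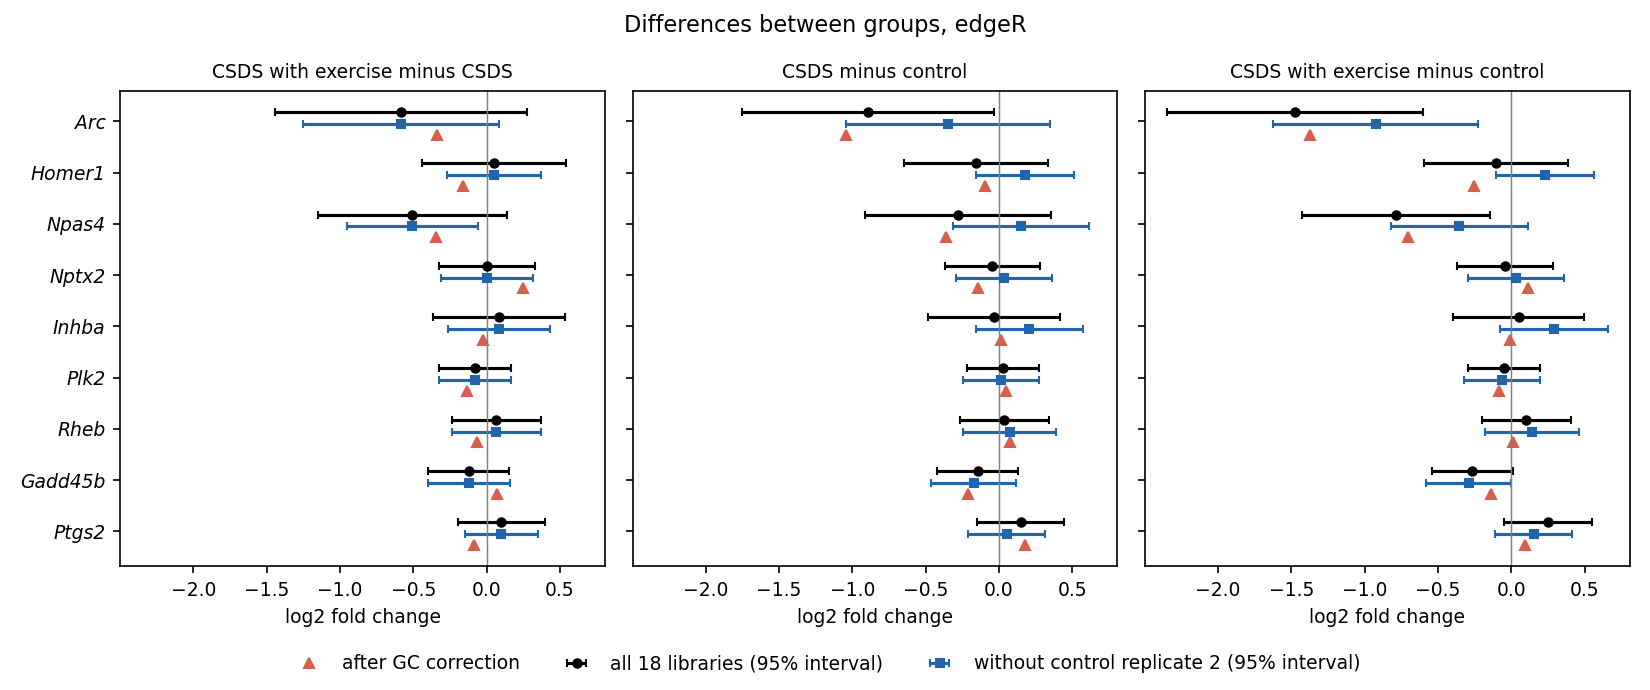
Log2 fold change of each gene in the 3 comparisons, with 95% intervals from edgeR over all 18 libraries (black) and without control replicate 2 (blue), and values after correction for GC content (red). Among the black points Arc has the most negative value in every panel, and its intervals against control move towards 0 without control replicate 2.

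A property of the libraries moved with some of these genes. The slope of a library's deviations on the GC content of transcripts, in log2 units per 10 percentage points of GC, averaged -0.16 ± 0.21 in CSDS with exercise, 0.12 ± 0.18 in CSDS and 0.05 ± 0.15 in controls (SD, n = 6 each). Over all genes tested, the log2 fold change of CSDS with exercise against CSDS correlated with GC content at r = -0.54 (16421 genes, a description across genes, which are not independent replicates). Arc, Npas4, Nptx2 and Gadd45b had median transcript GC of 56.1% to 59.0%, and the other 5 genes 42.6% to 48.9%. With the GC trend removed, the log2 fold change of CSDS with exercise against CSDS was -0.33 ± 0.38 for Arc and -0.35 ± 0.30 for Npas4. Against control, CSDS with exercise then gave -1.37 ± 0.39 for Arc and -0.71 ± 0.30 for Npas4.

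Across the 17 libraries other than control replicate 2, Arc followed this slope with r = 0.86 and Npas4 with r = 0.82, and Rheb ran against it with r = -0.77. Spearman's rho was 0.86, 0.83 and -0.83. Of the 9 relations examined, Plk2 also passed (r = 0.55, rho = 0.55). Permutation p-values adjusted over the 9 were 9e-05 for Arc and for Npas4, 0.00075 for Rheb and 0.0417 for Plk2 by r, and 0.0525 for Plk2 by rho. The slope was fitted to the same log2 CPM values over all genes, these 9 among them. Genes high in GC therefore tend to follow it and genes low in GC to run against it. Not all of the 9 did so over the 17 libraries. Plk2, at 48.9% GC, followed the slope, while r was only 0.16 for Gadd45b (56.85% GC) and 0.05 for Ptgs2 (42.6% GC). The share of all genes passing was not computed, so these p-values do not set the 9 apart. Leaving out the 2 libraries farthest from the median slope gave r of 0.83, 0.73, -0.70 and 0.57 for Arc, Npas4, Rheb and Plk2. With all 18 libraries r was 0.58 for Arc, 0.52 for Npas4 and -0.78 for Rheb.

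The genes did not move as one set from mouse to mouse. Of 36 pairs, 2 had a permutation p under 0.05 for Pearson's r of log2 CPM after adjustment over the pairs in all 18 libraries, 3 had it without control replicate 2, and 1 pair, Arc and Npas4, had it both times. Arc and Npas4 correlated at r = 0.86 and rho = 0.72 over 18 libraries (adjusted permutation p = 0.00036 and 0.0421, the first from the smallest p that 100000 permutations give). Over 17 libraries r was 0.76 and rho 0.67 (adjusted permutation p = 0.00612 and 0.0711), and without the 2 libraries farthest in Arc r was 0.71 of 18 and 0.65 of 17. Within groups r was 0.72 in CSDS with exercise, 0.86 in CSDS and 0.90 in controls, each over 6 mice. The control value rests largely on control replicate 2 (517 CPM for Arc and 20.1 CPM for Npas4). The other 5 control mice lay at 94.3 to 202 CPM for Arc and 5.73 to 7.73 CPM for Npas4. After GC correction r was 0.84 over 18 libraries and 0.63 over 17.

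The other pairs depended on which libraries were included. Homer1 and Inhba correlated at r = 0.76 and rho = 0.68 over 18 libraries (adjusted permutation p = 0.0081 and 0.0446). Without control replicate 2 the pair had r = 0.58 and rho = 0.62 (adjusted permutation p = 0.117 and 0.0711), and r was 0.47 over 18 libraries less the 2 farthest in Homer1. Plk2 and Ptgs2 correlated at r = 0.57 over 18 libraries and r = 0.71 over 17 (adjusted permutation p = 0.127 and 0.0131), with rho of 0.60 and 0.59 (0.0658 and 0.0778). Over 17 libraries less the 2 farthest in Plk2 r was 0.38, so the relation rests in part on those libraries. After GC correction it was 0.74 over 18 and 0.87 over 17. Within groups r of Plk2 and Ptgs2 was 0.96 in CSDS with exercise, 0.42 in CSDS and 0.52 in controls. For Homer1 and Inhba it was 0.67, 0.39 and 0.93 in the same order, the last with control replicate 2 included.

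Arc and Rheb ran in opposite directions, with r = -0.46 over 18 libraries and r = -0.74 over 17 (adjusted permutation p = 0.247 and 0.0131). Their rho was -0.62 and -0.80 (0.0658 and 0.00864), and r without the 2 libraries farthest in Arc was -0.75 of 18 and -0.70 of 17. Within groups r was -0.87 in CSDS with exercise, -0.92 in CSDS and 0.04 in controls. The control value depends on control replicate 2, which had 517 CPM for Arc and 86.2 CPM for Rheb, above the control median of 81.0 CPM. It therefore does not set controls apart from the other groups. After GC correction r of Arc and Rheb was -0.26 over 18 libraries and -0.55 over 17. The GC slope described above moved with both genes.

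**Figure D3:**
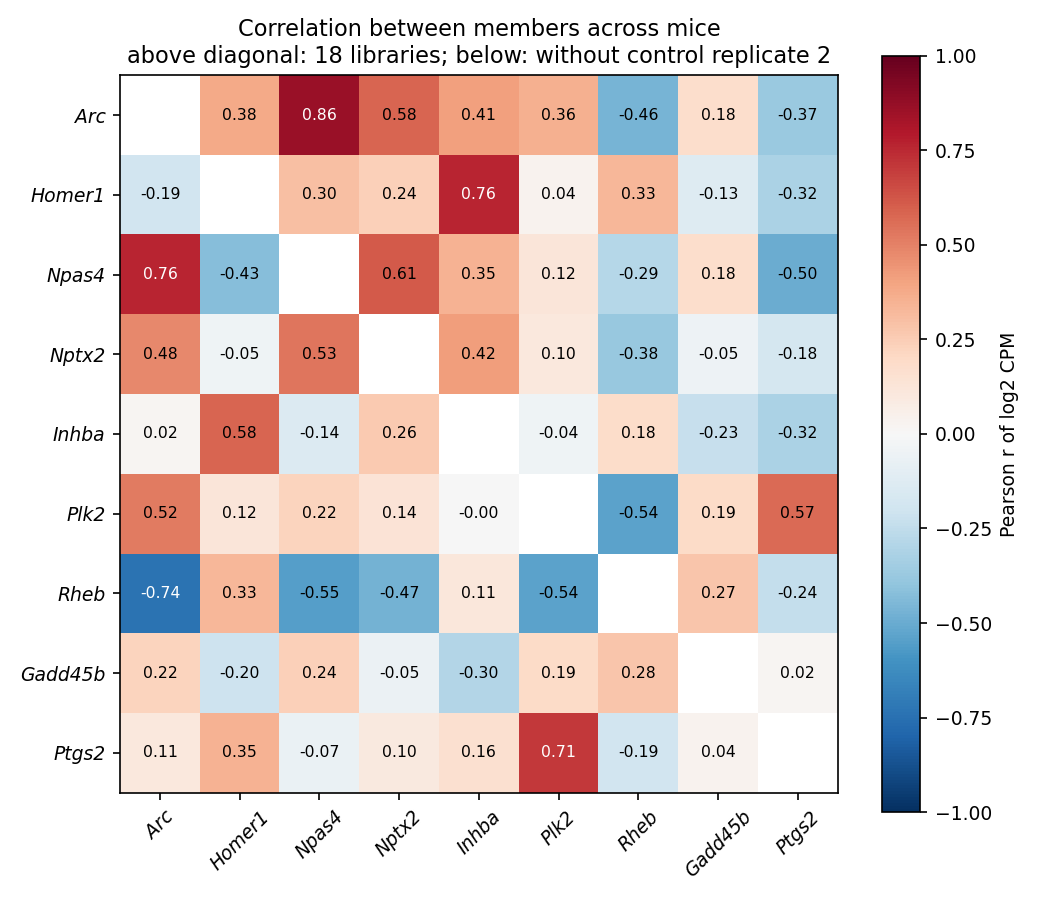
Pearson's r of log2 CPM between the 9 genes across mice, over all 18 libraries above the diagonal and over the 17 without control replicate 2 below it. Arc and Npas4 are strongly positive in both (0.86 and 0.76), while Homer1 and Npas4 have r = 0.30 above and -0.43 below.

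**Figure D4:**
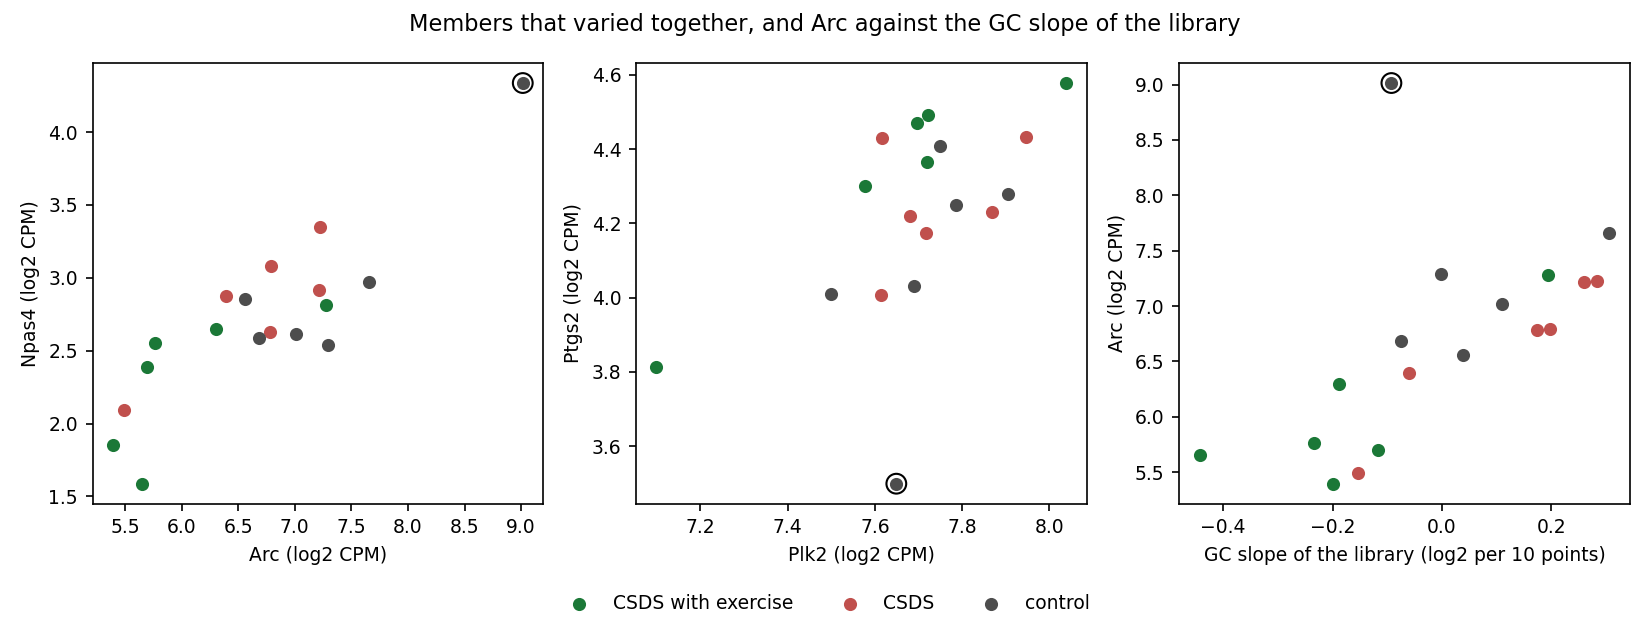
Npas4 against Arc, Ptgs2 against Plk2, and Arc against the GC slope of the library, each point 1 mouse in log2 CPM, with control replicate 2 ringed. Arc and Npas4 rise together in both CSDS groups, and in controls mainly through the ringed library. That library lies far above the trend of Arc on the GC slope.

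The 3 protein-coding genes most like each of the 9 were taken by Pearson's r of log2 CPM over the 18 libraries, among 13281 genes, as a description of libraries that share the GC slope and control replicate 2. Nearest to Arc were Nr4a1 (r = 0.94), a nuclear receptor, and the zinc finger factors Egr1 (0.92) and Egr2 (0.91), all 3 of them induced by activity; after GC correction r was 0.94, 0.91 and 0.91. Nearest to Npas4 were Rab11b, a GTPase of recycling endosomes (0.90), Lynx1, a modulator of nicotinic receptors (0.90), and Afap1l1 (0.89). After GC correction r was 0.63, 0.55 and 0.86 for these 3. Homer1 lay nearest to the serotonin receptor gene Htr2a (0.92), then Nlk (0.90) and Btbd8 (0.89), with r of 0.84, 0.77 and 0.74 without control replicate 2.

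Rheb was most like Psma3, a proteasome subunit (0.98), Rpl22l1, a ribosomal protein (0.98), and Snrpd1, a splicing protein (0.98). Genes like Plk2 included the muscarinic receptor gene Chrm1 (0.92) and Bcl7a (0.91), and Ptgs2 was most like the receptor genes Ntrk3 (0.88) and Epha4 (0.87) and the kinase gene Abl2 (0.87). Gadd45b was nearest to Ramp1 (0.84), Ddit4, a stress-induced inhibitor of mTORC1 (0.84), and Bax, a gene of cell death (0.80). Nptx2 was nearest to Slc43a2 (0.80), F8a (0.78) and Capn2 (0.76), and Inhba to Hbs1l (0.81), Rmnd1 (0.79) and Mapk11 (0.78).

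Arc and Npas4 also varied with other genes of the activity response, though not with all of them. Against 15 activity-induced regulators, mostly transcription factors of the first wave, the median r over 18 libraries was 0.78 for Arc and 0.75 for Npas4. The single values ran from -0.34 to 0.94 for Arc and from -0.51 to 0.89 for Npas4, and were not corrected for GC. The median r was 0.42 for Nptx2, 0.34 for Inhba, 0.31 for Homer1 and for Plk2, 0.22 for Gadd45b, -0.30 for Ptgs2 and -0.36 for Rheb. Without control replicate 2 it was 0.70 for Arc, 0.61 for Npas4, 0.53 for Plk2, 0.30 for Nptx2 and 0.25 for Gadd45b. It was then -0.02 for Homer1, -0.04 for Inhba and -0.54 for Rheb, and for Ptgs2 it turned positive, at 0.18. No median over all genes was set beside these values, and Arc and Npas4 also followed the GC slope. The values therefore do not set the regulators apart from other genes.

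None of the 15 regulators was called in any comparison. They were chosen with earlier results of these data known and are not independent of each other. All 15 had negative log2 fold changes in CSDS with exercise against CSDS (46.5% of all genes), with a median of -0.26. Of them 3 had an unadjusted p under 0.05, all lower (7.46% of all genes were lower at that p). In CSDS against control 11 were negative (49.98% of all genes), with a median of -0.28, and 4 were lower at that p (1.68% of all genes). For CSDS with exercise against control 13 were negative (48% of all genes), with a median of -0.76, and 10 were lower (4.39% of all genes). Without control replicate 2 these counts were 6, 2 and 8, with medians of -0.26, -0.03 and -0.43, against 8.64%, 0.968% and 4.3% of all genes. After GC correction they were 2, 7 and 10, with medians of -0.22, -0.38 and -0.46, against 2.75%, 2.05% and 3.2% of all genes. In that setting 13, 12 and 14 of the 15 regulators were negative.

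Among them, Egr2 was at 1.10 ± 0.444 CPM in CSDS with exercise, 2.19 ± 1.04 CPM in CSDS and 5.58 ± 5.06 CPM in controls (SD, n = 6 each). Its log2 fold change in CSDS with exercise against control was -2.34 ± 0.50 (edgeR adjusted p = 0.116), and -1.70 without control replicate 2. Fos was at 6.63 ± 1.60 CPM in CSDS with exercise, 8.78 ± 3.50 CPM in CSDS and 20.1 ± 14.6 CPM in controls. Against control its log2 fold change was -1.59 ± 0.37 in CSDS with exercise (edgeR adjusted p = 0.146) and -1.19 ± 0.36 in CSDS (edgeR adjusted p = 0.993). Without control replicate 2 these were -1.11 and -0.70. Between CSDS with exercise and CSDS it was -0.40 ± 0.37 (edgeR adjusted p = 0.591). Junb, a partner of Fos, was at 35.6 ± 12.4 CPM in CSDS with exercise, against 57.6 ± 14.8 CPM in CSDS (-0.69 ± 0.22, adjusted p = 0.206), and this value was -0.31 after GC correction.

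**Figure D5:**
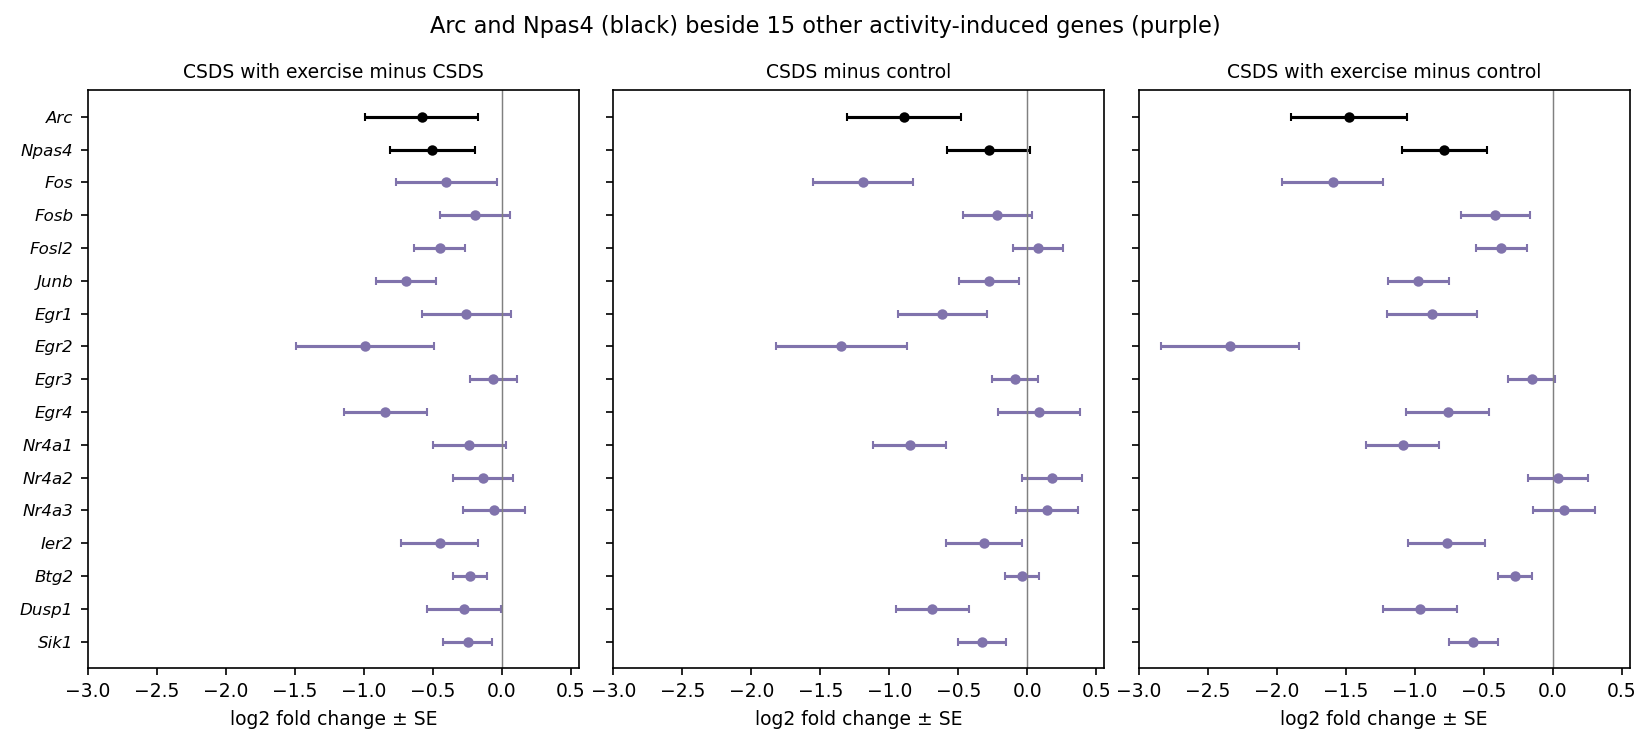
Log2 fold change ± SE (edgeR, all 18 libraries) of Arc and Npas4 (black) and of 15 other activity-induced genes (purple) in the 3 comparisons. All 17 points lie below 0 in CSDS with exercise against CSDS, where 46.5% of all genes do, and none passed the test adjusted over all genes.

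The pathways around the 9 genes were followed through 9 further lists, which with the 15 regulators make 107 genes, all of them tested and 0 called in each comparison by edgeR. At an unadjusted p under 0.05, 11 were lower and 5 higher in CSDS with exercise against CSDS (15.6% of all genes at that p in either direction), 6 lower and 1 higher in CSDS against control (3.51%), and 16 lower and 7 higher in CSDS with exercise against control (11.2%). Those counts include the regulators. The partners named below were picked for the smallest p of their list in any comparison, and none passed the test adjusted over all genes.

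Around the receptors and scaffolds, 2 of 13 partners of Arc in AMPA receptor endocytosis had an unadjusted p under 0.05 in CSDS with exercise against CSDS, a share near the 15.6% of all genes. They were the dynamin gene Dnm3 (0.32 ± 0.15, and 0.12 after GC correction) and the endophilin gene Sh3gl1 (-0.24 ± 0.11, and -0.017 after GC correction). Of 9 Homer relatives and ligands, Shank3, a scaffold bound by Homer, was at 283 ± 117 CPM in CSDS with exercise and 423 ± 125 CPM in CSDS (-0.58 ± 0.25), and Agap2 had -0.55 ± 0.24. After GC correction these were -0.23 and -0.16. Homer2 (0.28 ± 0.10) and the glutamate receptor gene Grm5 (0.35 ± 0.14) had positive values in CSDS with exercise against control, at 0.23 and 0.25 without control replicate 2. Of 7 pentraxin and AMPA receptor genes, Gria2, a receptor subunit, had 0.29 ± 0.13 in the last comparison, and 0.14 after GC correction. Npas1, a relative of Npas4 among 6 partners and relatives, was at 8.19 ± 2.96 CPM in CSDS with exercise and 13.5 ± 3.39 CPM in CSDS (-0.71 ± 0.22, and -0.33 after GC correction).

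In the activin pathway of 15 genes, the receptor gene Acvr1c was at 18.01 ± 4.62 CPM in CSDS with exercise and 12.7 ± 1.12 CPM in CSDS (0.51 ± 0.15, edgeR adjusted p = 0.198). Inhbb, the gene of the other activin subunit, had -0.34 ± 0.13 in the same comparison, and -0.0031 after GC correction. The receptor gene Acvr2a had 0.49 ± 0.22 in CSDS with exercise against control, and 0.22 after GC correction. In CSDS against control Inha, the inhibin subunit that opposes activins, had 0.38 ± 0.14, and 0.50 without control replicate 2. Of 9 polo-like kinases and Plk2 substrates, Plk3 had -0.51 ± 0.18 (-0.30 without control replicate 2, -0.35 after GC correction) and Plk1, a mitotic kinase near 1 CPM, had 0.91 ± 0.35 in CSDS with exercise against control.

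Of 12 genes around Rheb, Akt1s1, an inhibitor within mTORC1, was at 33.8 ± 4.34 CPM in CSDS with exercise and 48.8 ± 6.85 CPM in CSDS (-0.53 ± 0.11, unadjusted p = 8.45e-05, edgeR adjusted p = 0.143). That value was -0.09 after GC correction. Eif4ebp1, a repressor of translation that mTORC1 switches off, had -0.55 ± 0.17 there and -0.54 after GC correction, at a level of 1.25 ± 0.227 CPM in CSDS with exercise and 1.83 ± 0.177 CPM in CSDS. Rps6kb1, a kinase downstream of mTORC1, had 0.33 ± 0.13, and 0.14 after GC correction. In CSDS against control Tsc1, part of the complex that switches Rheb off, had -0.17 ± 0.08.

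Of 7 genes related to Gadd45b, the DNA demethylase gene Tet2 was at 20.7 ± 2.32 CPM in CSDS with exercise and 15.2 ± 2.01 CPM in controls (0.45 ± 0.10, edgeR adjusted p = 0.116), and 0.35 after GC correction. Against CSDS, with 16.5 ± 0.546 CPM, the difference of Tet2 in CSDS with exercise was 0.33 ± 0.10, and 0.19 after GC correction. Tet1 had 0.29 ± 0.10 against CSDS and 0.24 ± 0.10 against control, and Gadd45g, a relative of Gadd45b, had -0.44 ± 0.20 against control, -0.22 after GC correction and -0.56 without control replicate 2. In the prostaglandin pathway of 14 genes, Ptges2, a prostaglandin E synthase, had -0.34 ± 0.10 in CSDS with exercise against CSDS and -0.17 after GC correction. With an unadjusted p under 0.05 it was alone among the 14 there, beside 15.6% of all genes.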

How the data were processed

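RNA of 18 mouse hippocampi (poly(A)-enriched stranded libraries, RNA integrity number of at least 7, per the labels' protocols) was analysed. The authors deposited unscaled expected counts (estimated counts, whole or not) per gene and library; reads went through fastp, HISAT2 and RSEM with GRCm38, per the submitters' processing notes. Versions, annotation release and strand setting are not stated there, so overlapping genes are uncertain. Of nonzero values 22.7% were not whole, and counts were rounded. Symbols matched 51884 of 57180 identifiers; those without one (5296) held 0.62% of counts. Gene positions and transcript GC come from GENCODE M21 (GRCm38), promoters from RefSeq (GRCm38.p6).

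The test was that of edgeR 4.0.16 (R 4.3.3), with filterByExpr (minimum count 10, minimum total 15), TMM scaling and the quasi-likelihood F test on all 18 libraries with 1 term per group. A gene was called where its p, adjusted by Benjamini-Hochberg over the 16738 tested, was under 0.05. Log2 CPM used a prior count of 2. Scripts were tested on simulated data. Correlations used two-sided permutation tests with 100000 resamples, in which libraries were shuffled without regard to group. For the GC correction, each library's deviations were smoothed on transcript GC (lowess span 0.3, 98.1% of tested genes with a value) and entered as an offset. Alternatives were DESeq2 1.42.0, limma 3.58.1 voom with quality weights, other scalings and filters, fits restricted to the groups compared, a block for the replicate number, and each library left out; GC correction combined with leaving out control replicate 2 was chosen after seeing the data. The 9 genes and all lists of related and marker genes were chosen with earlier results of these data known. The rule for naming took the 9 genes, up to 4 genes per related list with the smallest p in any comparison, the 3 nearest genes of each of the 9, and markers where a library stands apart; Dsp was named by it, and 1 gene it would name is not reported here. Mitochondrially encoded genes took 1.71% to 5.10% of counts.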

Additional observations from a re-analysis of the deposited data

Results flagged for a closer look

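Within each group of 6 mice, a value was singled out where its gap to the nearest other value, divided by the range of the group, was above Dixon's critical value at the 95% level. Of 27 groups of gene and condition, 7 held such a value. The nominal rate of about 1 in 20 holds for independent, normally distributed values. The 9 genes share libraries, so these groups are not independent. The share over all genes was not computed, so the count does not set the 9 apart. Control replicate 2 gave 4 of them, with 516.9 CPM for Arc, 182.6 CPM for Homer1, 20.1 CPM for Npas4 and 7.896 CPM for Inhba, each above the other 5 control mice. In the same library the neocortical markers summed to 524 CPM, beside 108 to 152 CPM in the other 17, and the dentate granule markers to 114 CPM, beside 366 to 660 CPM. Of these markers Fezf2, Scnn1a and Stxbp6 lay within the range of the 17. The part of tissue content in the result was not tested. Exercise replicate 4 was highest for Arc at 155.1 CPM and lowest for Rheb at 54.98 CPM, and replicate 3 was highest for Homer1 at 129.1 CPM.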

How the results depend on the processing

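The 9 genes gave 27 log2 fold changes, each recomputed under 28 alternatives; of 756 values, 691 had the direction of the reported value and the same side of the threshold, 3 became calls and 62 turned sign, all 62 of them without a call. No sign turned for Arc or for Npas4 except Npas4 in CSDS against control. limma voom called 2 of the 9 genes in CSDS with exercise against CSDS (Arc at -0.95, adjusted p = 0.00886, and Npas4 at -0.66, adjusted p = 0.0202) and 1 in CSDS with exercise against control (Arc at -1.17, adjusted p = 0.0467). Over the alternatives the adjusted p of these 3 results lay at or above 0.00886, 0.0202 and 0.0467. The cause of changes in this section was not tested. The added setting, GC correction without control replicate 2, was chosen after seeing the data.

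Genes called in CSDS with exercise against CSDS (0 reported) were 2 with no filter, 1 with GC correction, 1 with only the groups compared, 164 with DESeq2 and 5567 with voom, and 0 to 625 with 1 library left out (625 without exercise replicate 4, 43 without CSDS replicate 5). In CSDS against control (0 reported) DESeq2 called 1, and leaving out 1 library gave 0 to 0. In CSDS with exercise against control (3 reported) the count was 0 with no filter, with the filter of 1 CPM in 6 libraries, with GC correction, with only the groups compared and with the added setting, 109 with DESeq2, 183 with voom and 0 to 13 with 1 library left out (13 without exercise replicate 4).

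Signs turned as follows in CSDS with exercise against CSDS. With GC correction alone and with the added setting, Homer1 was at -0.16 and -0.16, Inhba at -0.024 and -0.025, Rheb at -0.068 and -0.069, Gadd45b at 0.070 and 0.070, and Ptgs2 at -0.082 and -0.083. Nptx2 was at -0.0031 with RLE scaling, -0.0063 with no filter, -0.0086 with the filter of 1 CPM, -0.0050 with DESeq2 and -0.13 with voom. In CSDS against control, voom gave 0.073 for Homer1, 0.23 for Npas4, 0.068 for Nptx2, 0.048 for Inhba and -0.10 for Rheb. The added setting gave 0.20 for Homer1, 0.10 for Npas4 and 0.24 for Inhba, and GC correction alone 0.013 for Inhba. Against control, CSDS with exercise had Homer1 at 0.10 with voom and 0.040 with the added setting, Nptx2 at 0.11 with GC correction and 0.21 with the added setting, Inhba at -0.012 with GC correction and Ptgs2 at -0.017 with the added setting.

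With 1 library left out at a time, the results that turned sign ranged in CSDS with exercise against CSDS from -0.11 to 0.12 for Homer1, -0.061 to 0.14 for Nptx2, -0.0042 to 0.20 for Inhba and -0.18 to 0.014 for Plk2. In CSDS against control they ranged from -0.27 to 0.18 for Homer1, -0.40 to 0.15 for Npas4, -0.18 to 0.032 for Nptx2, -0.15 to 0.21 for Inhba, -0.017 to 0.067 for Plk2 and -0.048 to 0.11 for Rheb. For CSDS with exercise against control they ranged from -0.27 to 0.23 for Homer1, -0.12 to 0.035 for Nptx2, -0.046 to 0.29 for Inhba and -0.16 to 0.041 for Plk2.

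Mice with the same replicate number did not deviate together (correlations of -0.31 to -0.09, -0.47 to 0.09 and -0.26 to 0.25 in the 3 comparisons, 6 pairs each). The main test therefore did not pair the mice by number. Correlations over all genes, which also carry the GC slope and tissue content of each library, cannot exclude a pairing. With the replicate number as a block edgeR called 0 genes in CSDS with exercise against control in place of 3, 0 in the other comparisons, and 0 of the 9. Npas4 and Inhba rest on the fewest counts, as few as 55 and 61 in a library.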
